A study of Mus musculus with 12 samples.

Results

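Clock output genes carry the daily rhythm of the circadian clock from its core to the rest of the genome. The 9 genes described here were taken by symbol: the PAR-bZIP activators Dbp, Tef and Hlf, the repressor Nfil3, the clock repressors Ciart, Bhlhe40 and Bhlhe41, and the output genes Usp2 and Wee1. Of 46078 genes in the count table these are 9, and each was among the 13054 genes that passed a filter on low counts. PAR-bZIP proteins, named after a domain rich in proline and acidic amino acids, switch on genes through a DNA element called the D-box. NFIL3 binds the same element and represses, so that the activators and NFIL3 work against each other. In liver the genes under D-box control include enzymes of drug, haem and lipid metabolism. The core clock in turn acts on these genes: CLOCK and ARNTL (BMAL1) activate through E-boxes, and receptors such as the REV-ERBs, which repress, act through ROREs.

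Liver RNA was sequenced from 12 male C57BL/6 mice (C57BL/6J in the study's methods) with diet-induced obesity, all 21 weeks old and raised on a high fat diet with 60% of its energy from fat. VSG mice had vertical sleeve gastrectomy, which removes most of the stomach. Sham-WM mice had sham surgery and then so little food that their weight matched the VSG group, and Sham-Ad lib mice had sham surgery and free access to food. Each group held 4 mice, each library coming from a separate mouse, and livers were taken on day 16 after 5 h without food. The mice lived under 12 h of light a day and interventions were done in the light. The hour at which each mouse was killed and the hours at which Sham-WM mice ate are not given in the sources used, so that each liver shows the genes at 1 unknown clock time. Amplitude and phase of a rhythm were therefore not measured.

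Library totals ran from 15122520 counts in 11F to 19384076 in 9F. Libraries were grouped by the mouse number in their name: Sham-Ad lib 3F, 4F, 6F and 10F, Sham-WM 2F, 9F, 15F and 16F, and VSG 1F, 8F, 11F and 18F. The description field of the labels pairs the mice with the libraries in another way, running through the library names in alphabetical order. Under that pairing 0 of 13054 genes passed in edgeR in any of the 3 comparisons, with 465 at an unadjusted p under 0.05 for VSG against Sham-Ad lib, 158 for VSG against Sham-WM and 715 for the sham groups. Everything reported rests on the numbers in the library names. The libraries' index numbers run in 1 block for each group, and what they stand for is not stated, so an effect tied to them and one of treatment cannot be told apart. The study's methods report that RUVSeq with 2 factors was used to take out variation from batch, without saying what the batches were. The main fit here has no such factors, which were fitted only in the alternatives named RUVr and RUVs.

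Levels are read counts scaled to the normalised library size (CPM), given with the SD over n = 4 mice. A gene is said to have risen or fallen when its adjusted p in edgeR, over all 13054 genes, was under 0.05. Of all genes, 0.751% were called in VSG against Sham-Ad lib, 6.99% in Sham-WM against Sham-Ad lib and 26.9% in VSG against Sham-WM. Counts of called genes in each list stand beside these shares. Members and lists were chosen with earlier results of these data known, so setting their counts beside the shares is a description and no test. Exact permutation tests on single genes had 70 arrangements and could not go below p = 0.0286, and all tests were two-sided. Since reads were counted without molecular identifiers, limits from counts cover counting error only. In bulk liver, fewer cells of a type and less RNA per cell cannot be told apart. As a check of the labelled tissue, hepatocyte markers were abundant in every library, and their summed level lay between 78866 CPM in 8F and 149570 CPM in 16F, with Alb as the most abundant.

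Dbp, the PAR-bZIP activator with the strongest daily swing in liver, stood at 156, 110.9, 146 and 166 CPM in the Sham-Ad lib livers 3F, 4F, 6F and 10F. Sham-WM livers 2F, 9F, 15F and 16F held 23.1, 12.7, 13.0 and 7.598 CPM. VSG livers 1F, 8F, 11F and 18F held 98.5, 153, 137 and 125 CPM. Every Sham-WM liver was thus far below every liver of the other groups, while Sham-Ad lib and VSG overlapped. Dbp fell 10.2-fold in Sham-WM against Sham-Ad lib, a log2 fold change of -3.35 (95% CI -3.96 to -2.75, adjusted p = 4.42e-05), in 4 of 4 mice. VSG livers were 9.07-fold higher than Sham-WM livers, with a log2 fold change of 3.18 (95% CI 2.58 to 3.78, adjusted p = 3.15e-05). For VSG against Sham-Ad lib the log2 fold change was -0.17 (95% CI -0.72 to 0.37, adjusted p = 0.702), an interval that does not reach the size of the Sham-WM difference. Group means were 145 ± 23.99 CPM (Sham-Ad lib), 14.1 ± 6.505 (Sham-WM) and 128 ± 23.0 (VSG). The gene, ENSMUSG00000059824, lies at chr7:45705088-45710203 on the plus strand of mm10. Its last 737 bases overlap Sphk2 on the opposite strand, and the strand setting of the read counting is not stated. Sphk2 itself averaged 42.5 ± 3.65 CPM in Sham-Ad lib mice, 43.3 ± 12.6 in Sham-WM mice and 37.3 ± 2.101 in VSG mice, so its level did not follow the pattern of Dbp.

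Tef, a second activator of the same family, moved less. Sham-Ad lib livers 3F, 4F, 6F and 10F held 228, 178, 253 and 244 CPM of Tef, Sham-WM livers 2F, 9F, 15F and 16F held 125, 126, 140.3 and 112.5 CPM, and VSG livers 1F, 8F, 11F and 18F held 139.7, 192, 182 and 183 CPM. The Sham-WM livers were lower than every Sham-Ad lib liver. The VSG mean lay between theirs, with 1F just inside the Sham-WM range and 8F, 11F and 18F inside the Sham-Ad lib range. Tef fell 1.79-fold in Sham-WM against Sham-Ad lib (log2 fold change -0.84, 95% CI -1.13 to -0.55, adjusted p = 0.00344). In VSG it was 1.38-fold higher than in Sham-WM (log2 fold change 0.47, 95% CI 0.17 to 0.76, adjusted p = 0.0243), with overlapping groups and an exact permutation p of 0.0571. That call was lost without 2F (adjusted p = 0.0508), 9F (0.0518), 16F (0.0774) or 8F (0.0586). Against Sham-Ad lib, VSG had a log2 fold change of -0.37 in Tef (95% CI -0.67 to -0.08), which did not pass (adjusted p = 0.125), but passed without 4F (0.0465) or with RUVr factors, which take up unwanted variation (0.0255). With RUVs factors, another form of these, it did not pass (0.807). Tef is ENSMUSG00000022389, at chr15:81802421-81826863 on the plus strand, and 193 of its bases overlap the antisense gene Gm17597, which averaged 2.5 counts per library.

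Hlf, the remaining PAR-bZIP activator, showed no such split. Its level ran from 53.0 CPM in 1F to 98.5 CPM in 6F, and means were 82.7 ± 19.1 CPM (Sham-Ad lib), 72.5 ± 15.2 (Sham-WM) and 69.2 ± 15.5 (VSG). All 3 groups overlapped. The log2 fold change of Hlf in Sham-WM against Sham-Ad lib was -0.19 (95% CI -0.63 to 0.25, adjusted p = 0.653), an interval that leaves out a fall as large as that of Dbp. VSG gave -0.26 against Sham-Ad lib (adjusted p = 0.454) and -0.07 against Sham-WM (adjusted p = 0.831). Hlf, ENSMUSG00000003949, lies at chr11:90336536-90390895 on the minus strand.

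Nfil3 encodes the repressor that competes with these activators, and it ran the other way. The values were 11.998, 23.1, 16.1 and 14.1 CPM in Sham-Ad lib livers 3F, 4F, 6F and 10F. Sham-WM livers 2F, 9F, 15F and 16F held 26.4, 44.5, 44.8 and 33.3 CPM, and VSG livers 1F, 8F, 11F and 18F held 17.1, 15.5, 18.1 and 11.8 CPM. All 4 Sham-WM livers lay above all 8 others. Nfil3 rose 2.29-fold in Sham-WM against Sham-Ad lib, a log2 fold change of 1.19 (95% CI 0.72 to 1.66, adjusted p = 0.00692). VSG livers were 2.39-fold lower than Sham-WM livers (log2 fold change -1.26, 95% CI -1.73 to -0.78, adjusted p = 0.00218), and differed from Sham-Ad lib by a log2 fold change of -0.06 (95% CI -0.54 to 0.41, adjusted p = 0.88). Nfil3 is ENSMUSG00000056749, at chr13:52967209-52981073 on the minus strand.

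**Figure D1:**
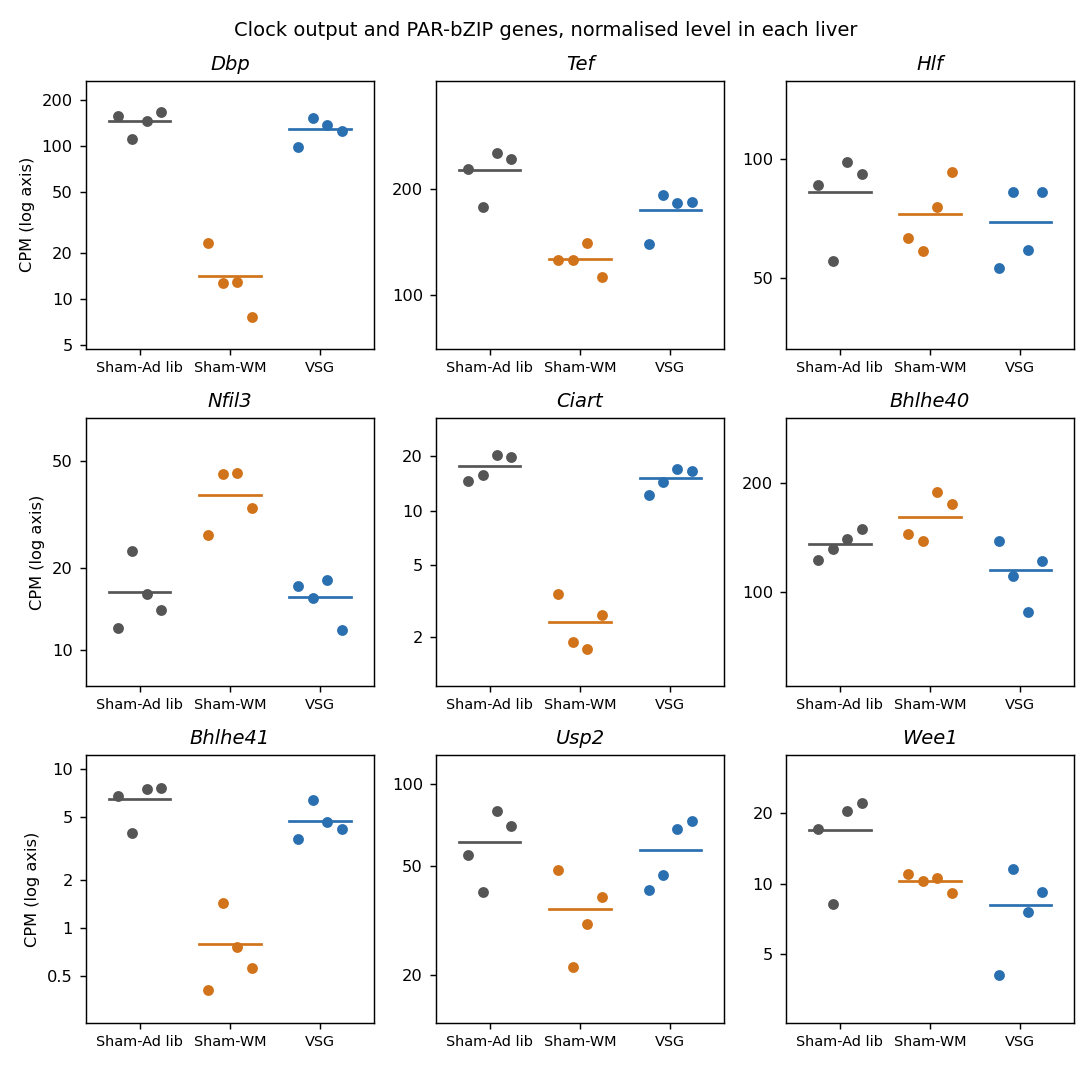
Each panel plots 1 gene, with the 3 groups along the bottom and CPM on a log axis; each point is 1 liver and each line the mean of 4. Dbp, Ciart and Bhlhe41 are low and Nfil3 is high in every Sham-WM liver, while Hlf overlaps across the groups.

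Ciart, also called Chrono, encodes a repressor of CLOCK and ARNTL and followed Dbp closely. Sham-Ad lib livers 3F, 4F, 6F and 10F held 14.7, 15.7, 20.3 and 19.8 CPM, Sham-WM livers 2F, 9F, 15F and 16F held 3.47, 1.89, 1.73 and 2.65 CPM, and VSG livers 1F, 8F, 11F and 18F held 12.2, 14.5, 17.1 and 16.6 CPM. The Sham-WM livers again formed a low block apart from the rest. Ciart fell 7.21-fold in Sham-WM against Sham-Ad lib (log2 fold change -2.85, 95% CI -3.31 to -2.39, adjusted p = 4.42e-05). It was 6.19-fold higher in VSG than in Sham-WM (log2 fold change 2.63, 95% CI 2.17 to 3.09, adjusted p = 2.11e-05). Between VSG and Sham-Ad lib the log2 fold change was -0.22 (95% CI -0.63 to 0.19, adjusted p = 0.491). The gene, ENSMUSG00000038550, lies at chr3:95878503-95882251 on the minus strand. An antisense gene, C920021L13Rik, covers all of it, with 0.706 ± 0.282 CPM in Sham-Ad lib livers beside 17.6 ± 2.84 for Ciart, 0.553 ± 0.238 beside 2.43 ± 0.793 in Sham-WM livers, and 0.71 ± 0.499 beside 15.1 ± 2.24 in VSG livers.

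Bhlhe41 (DEC2), a repressor that binds E-boxes, was the rarest member at 8 to 140 counts per library. Its levels were 6.81, 3.97, 7.57 and 7.65 CPM in Sham-Ad lib livers 3F, 4F, 6F and 10F, 0.408, 1.43, 0.765 and 0.563 CPM in Sham-WM livers 2F, 9F, 15F and 16F, and 3.64, 6.38, 4.67 and 4.21 CPM in VSG livers 1F, 8F, 11F and 18F. No Sham-WM liver reached the lowest liver of another group. Bhlhe41 fell 8.11-fold in Sham-WM against Sham-Ad lib (log2 fold change -3.02, 95% CI -3.78 to -2.26, adjusted p = 0.000347) and was 5.92-fold higher in VSG than in Sham-WM (log2 fold change 2.56, 95% CI 1.80 to 3.32, adjusted p = 0.000697). VSG against Sham-Ad lib gave a log2 fold change of -0.46 (95% CI -1.11 to 0.20, adjusted p = 0.373). This gene is ENSMUSG00000030256, at chr6:145858243-145865558 on the minus strand, where Gm43909 on the opposite strand shares 1876 bases and is not in the count table.

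Bhlhe40 (DEC1), the paralogue of Bhlhe41, did not share this fall. Sham-Ad lib livers 3F, 4F, 6F and 10F held 123, 131, 140.1 and 149 CPM, Sham-WM livers 2F, 9F, 15F and 16F held 145, 138, 189 and 175 CPM, and VSG livers 1F, 8F, 11F and 18F held 139, 110.9, 88.4 and 122 CPM. The groups overlapped in every comparison, with 11F the lowest and 15F the highest liver. Bhlhe40 was 1.40-fold lower in VSG than in Sham-WM (log2 fold change -0.49, 95% CI -0.80 to -0.18, adjusted p = 0.026), with an exact permutation p of 0.0571. The call was lost without 15F (adjusted p = 0.0798), 16F (0.069), 8F (0.0539) or 11F (0.0533), when only the 2 groups were fitted (0.0547) and with RUVs factors (0.232). Log2 fold changes of 0.25 in Sham-WM (adjusted p = 0.348) and -0.24 in VSG (adjusted p = 0.327) against Sham-Ad lib did not pass. Bhlhe40, ENSMUSG00000030103, lies at chr6:108660629-108666925 on the plus strand, and 306 of its bases overlap the antisense gene 0610040F04Rik, which averaged 0.333 counts per library.

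Usp2 encodes a ubiquitin-specific protease with a daily rhythm in many tissues. Its level ran from 40.2 to 79.7 CPM in Sham-Ad lib, from 21.5 to 48.7 CPM in Sham-WM and from 40.9 to 73.4 CPM in VSG. The VSG range lay inside that of Sham-Ad lib, and Sham-WM overlapped both at their lower edges. Means of 61.4 ± 17.4, 34.9 ± 11.6 and 57.3 ± 16.0 CPM put Sham-WM lowest. In Usp2 neither log2 fold change passed, being -0.81 in Sham-WM against Sham-Ad lib (95% CI -1.39 to -0.23, adjusted p = 0.0911) and 0.71 in VSG against Sham-WM (95% CI 0.13 to 1.296, adjusted p = 0.0649). Both passed in DESeq2 (adjusted p = 0.0333 and 0.0473), without a filter on low counts (0.0486 and 0.0489) and with RUVr factors (0.0404 and 0.0341). With RUVs factors only the first passed (0.033), and without 2F only the second (0.0352). Against Sham-Ad lib, VSG stood at -0.10 (adjusted p = 0.847). Usp2 is ENSMUSG00000032010, at chr9:44067021-44095627 on the plus strand. Gm49380, a protein-coding gene on the opposite strand, covers all of Usp2, and the antisense gene Gm39325 covers 4448 bases. Neither is in the count table, so their counts are not known.

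Wee1 encodes a kinase that holds back entry into mitosis by inhibiting CDK1. Sham-Ad lib livers 3F, 4F, 6F and 10F held 17.1, 8.16, 20.4 and 22.1 CPM of Wee1, Sham-WM livers 2F, 9F, 15F and 16F held 11.0, 10.2, 10.6 and 9.12 CPM, and VSG livers 1F, 8F, 11F and 18F held 4.06, 11.5, 7.53 and 9.16 CPM. Sham-Ad lib was the highest group except for 4F, which sat among the treated livers. The log2 fold change of Wee1 in VSG against Sham-Ad lib was -1.06 (95% CI -1.72 to -0.40, adjusted p = 0.0775) and in Sham-WM -0.73 (95% CI -1.38 to -0.08, adjusted p = 0.178), so neither passed. Without 4F both did, with adjusted p = 0.011 for VSG and 0.0457 for Sham-WM, and with all libraries VSG passed in DESeq2 (0.0139), without a filter (0.0323) and with RUVr factors (0.015). It did not pass with RUVs factors (0.749), with DESeq2 size factors or upper quartile factors in edgeR, with at least 10 counts in every library or when only the 2 groups were fitted. VSG and Sham-WM differed by a log2 fold change of -0.34 (adjusted p = 0.437). Wee1, ENSMUSG00000031016, lies at chr7:110122046-110143286 on the plus strand, all of it covered by the antisense gene 1600010M07Rik, which averaged 3 counts per library.

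**Figure D2:**
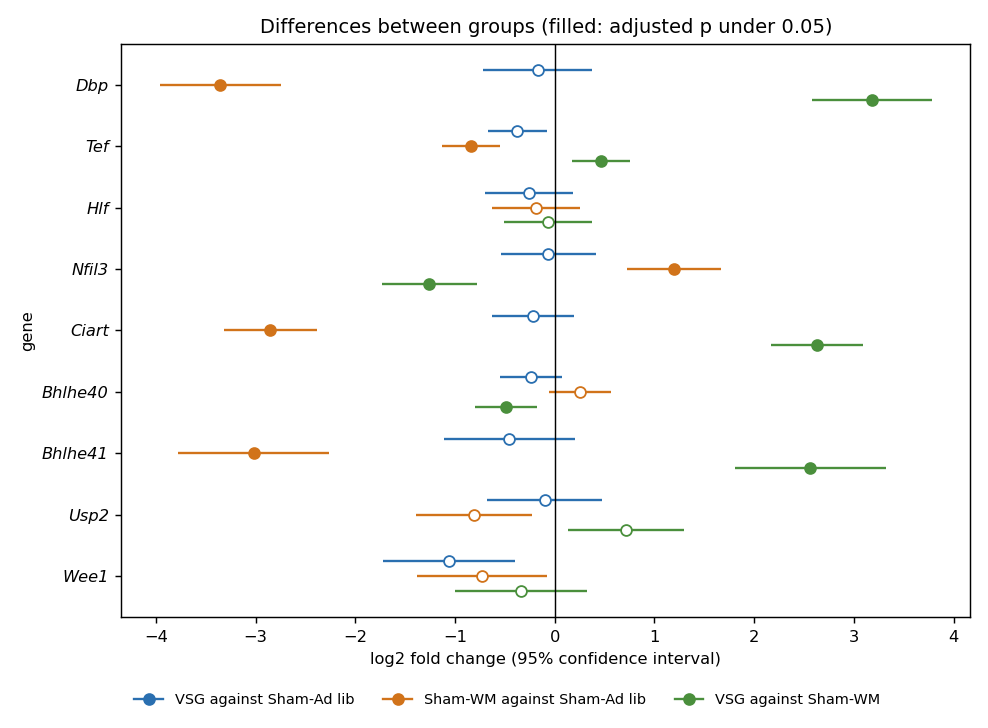
Log2 fold changes of the 9 genes in the 3 comparisons, with 95% confidence intervals as bars and filled points where the adjusted p was under 0.05. The VSG against Sham-Ad lib points are all open, and Dbp, Ciart and Bhlhe41 have the largest differences with Sham-WM.

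Compared per kilobase of exon, the ranking of the genes differed between groups. In Sham-Ad lib livers Dbp led with 48.3 ± 8.01 CPM per kb. Bhlhe40 (28.9 ± 2.44) and Tef (28.7 ± 4.27) followed within each other's spread, then Usp2 (12.7 ± 3.61) and Hlf (12.4 ± 2.87), Nfil3 (8.04 ± 2.38) and Ciart (7.78 ± 1.26), Wee1 (4.96 ± 1.82) and Bhlhe41 (0.968 ± 0.257), all in CPM per kb. VSG livers kept that order, from Dbp at 42.9 ± 7.67 over Bhlhe40 at 24.5 ± 4.49 and Tef at 22.1 ± 2.97 down to Bhlhe41 at 0.703 ± 0.176 CPM per kb. In Sham-WM livers Bhlhe40 led with 34.4 ± 5.10 CPM per kb, ahead of Nfil3 (18.4 ± 4.44) and Tef (16.0 ± 1.44), which did not differ beyond their spread. Dbp stood there at 4.72 ± 2.17 CPM per kb, below Hlf (10.9 ± 2.28) and Usp2 (7.25 ± 2.40) and above Wee1 (2.99 ± 0.231), Ciart (1.08 ± 0.351) and Bhlhe41 (0.118 ± 0.0672). The repressor Nfil3 thus exceeded the activator Dbp per length only in the Sham-WM group.

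Because several members moved together, their promoters were searched on both strands for 4 clock-related motifs. RefSeq promoters of build GRCm38.p6, each with 250 bases before and 50 after the start, were matched for 7 of the 9 genes, giving 8 promoters since Tef has 2, while Bhlhe40 and Wee1 were not matched. The E-box CACGTG was in 7.15% of 32851 promoters and in those of Ciart, Tef and Bhlhe41, and the D-box TTANGTAA was in 2.32% and in none of the members' windows. The RORE TAGGTCA was in 2.61% and in that of Nfil3, and the cyclic AMP response element (CRE) TGACGTCA was in 1.79% and in that of Hlf. None of the matches in these promoters overlapped another, and a match is a description, not a shown binding site. Among 10 core clock genes with a promoter, the E-box was in Cry1 and Per1, the D-box in Per3 and the RORE in Arntl.

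Ciart is shown at length since it held 3 E-boxes, 116, 58 and 44 bases before its start. The stretch of 98 bases, chr3:95882257-95882354 on the minus strand, has the E-boxes in capitals: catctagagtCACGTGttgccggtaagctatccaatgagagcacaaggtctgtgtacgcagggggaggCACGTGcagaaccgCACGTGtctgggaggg. The other matches are shown as 30 bases each, to let the flanks of the motifs be compared, with the motif in capitals. For Tef they lie 127 bases before the start at chr15:81802534-81802563 and, in its second promoter, 138 bases before at chr15:81811264-81811293, both on the plus strand. These starts are those of the RefSeq promoters. Both matches lie inside the gene bounds given above, the first in an annotated exon. For Bhlhe41 the E-box lies 153 bases before the start, within chr6:145865556-145865585 on the minus strand. The RORE of Nfil3, 12 bases before the RefSeq start within chr13:52981033-52981062 on the minus strand, reads on the opposite strand and so appears as TGACCTA. It lies in an annotated exon, inside the gene bounds given above. The CRE of Hlf, 9 bases before the start, lies within chr11:90390908-90390937 on the minus strand.
Tef, first promoter: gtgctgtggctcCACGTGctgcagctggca
Tef, second promoter: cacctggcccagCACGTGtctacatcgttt
Bhlhe41: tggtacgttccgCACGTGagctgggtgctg
Nfil3: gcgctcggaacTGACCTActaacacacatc
Hlf: ggtgcgggcccTGACGTCActcttgtcagg

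Sham-WM against Sham-Ad lib compares restricted with free access to food. Food intake and weight differed together and the hours of eating are not known, so their parts cannot be told apart. Dbp, Tef, Ciart and Bhlhe41 fell and Nfil3 rose in Sham-WM. That makes 5 of 9 members called, beside 912 of all 13054 genes (6.99%), of which 461 were higher (3.53%) and 451 lower (3.45%). The same 5 members had groups that did not overlap, beside 17.6% of all genes. The median log2 fold change was -0.81 over the 9 members and 0.00 over all genes. Among all genes the count dropped to 543 when 3F was left out, 554 for 6F, 506 for 10F, 445 for 15F and 424 for 16F, while 5 or 6 members were called whichever library was left out.

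VSG against Sham-WM compares the treatments directly at matched weight. Surgery and food intake, which the study found greater after VSG, differed together between these groups. Dbp, Tef, Ciart and Bhlhe41 were higher after VSG, and Nfil3 and Bhlhe40 were lower. These 6 of 9 calls stand beside 26.9% of all genes (3509), with 1962 higher (15%) and 1547 lower (11.9%). Groups did not overlap for 4 members, Dbp, Nfil3, Ciart and Bhlhe41, and for 26.2% of all genes. The members' median log2 fold change was 0.47, against 0.03 over all genes. The count over all genes was 2234 without 15F and 2196 without 16F, and 4 to 6 members were called when single libraries were left out.

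VSG against Sham-Ad lib asks what the operation did relative to obese mice with free access to food. By edgeR 0 of 9 members were called, with 2 (Tef and Wee1) at an unadjusted p under 0.05 and 1 (Wee1) in DESeq2. Over all genes edgeR called 98 (0.751%), 61 higher (0.467%) and 37 lower (0.283%). At an unadjusted p under 0.05 there were 3149 of all 13054 genes, and DESeq2 called 1227. DESeq2 was run on the 23091 genes with any count and applied its own filter when adjusting p, so no share is given for it. Groups overlapped for all 9 members, while 9.21% of all genes had no overlap. The members' median log2 fold change was -0.24, against 0.03 over all genes. Counts over all genes changed widely between fits, with 1 gene called when 3F, 10F or 16F was left out, 3 for 15F, 903 for 4F, 227 for 8F and 1089 for 18F. Leaving out 6F, 2F, 9F or 1F gave a count of 0 in edgeR, with 2230, 3060, 3060 and 2126 at an unadjusted p under 0.05. Of the livers left out, 2F, 9F, 15F and 16F are Sham-WM livers, which enter this comparison only through the shared fit. Without 15F and 16F, 2985 and 3047 genes had an unadjusted p under 0.05, near the 3149 with all libraries. The adjusted count thus changed with small changes of the fit and does not measure how far single livers carry the difference. Members called rose to 2 (Tef and Wee1) without 4F. The intervals given for Dbp, Ciart and Bhlhe41 bound their differences more closely than the count does. This comparison shares its controls with that of Sham-WM against Sham-Ad lib, and both comparisons with Sham-WM share those libraries.

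Core clock genes, whose proteins drive the members, were split in the same livers. In Sham-WM against Sham-Ad lib 3 of 10 tested genes rose (Arntl, Clock and Cry1) and 2 fell (Nr1d1 and Nr1d2). Arntl, the partner of CLOCK, stood at 0.953 ± 0.465 CPM in Sham-Ad lib and 0.907 ± 0.308 in VSG livers but 24.6 ± 8.82 in Sham-WM livers, and rose 25.6-fold in Sham-WM (log2 fold change 4.68, adjusted p = 4.42e-05). Nr1d1, which encodes REV-ERBα, a repressor of Arntl and Nfil3, went from 106.9 ± 27.2 to 9.94 ± 3.12 CPM (log2 fold change -3.42, adjusted p = 8.88e-05) and stood at 78.3 ± 31.9 CPM in VSG. Its relative Nr1d2 fell from 130.3 ± 11.8 to 54.2 ± 13.7 CPM (log2 fold change -1.26, adjusted p = 0.000977). Cry1, a repressor of CLOCK and ARNTL, rose from 6.00 ± 2.48 to 49.6 ± 10.4 CPM (log2 fold change 3.05, adjusted p = 0.000653). For Clock the log2 fold change was 0.85 (adjusted p = 0.0286), and its call was lost without 4F, 6F, 10F, 15F or 16F (adjusted p = 0.0515, 0.066, 0.097, 0.0797 and 0.0987). Npas2 did not pass the filter, with 0 to 27 counts per library, and Per1, Per2, Per3, Cry2 and Rora were not called. With RUVr factors Per2 passed (adjusted p = 0.0448).

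After VSG the core clock differed from Sham-WM in the opposite directions. Nr1d1 (log2 fold change 2.98, adjusted p = 0.000157) and Nr1d2 (1.05, adjusted p = 0.00146) were higher. Arntl (log2 fold change -4.72, adjusted p = 2.11e-05), Cry1 (-3.03, adjusted p = 0.000417) and Clock (-1.06, adjusted p = 0.00416) were lower. Per2 (log2 fold change -0.72, adjusted p = 0.0342) and Rora (-0.52, adjusted p = 0.0176) were also lower, in overlapping groups. DESeq2 called these 7 and also Npas2, which edgeR did not test. The call of Per2 was lost without 2F, 15F, 16F or 1F (adjusted p = 0.0828, 0.0672, 0.0957 and 0.0913), that of Rora without 15F or 1F (0.0508 and 0.0535), and those of Per2, Rora and Clock with RUVs factors (0.533, 0.423 and 0.203). Against Sham-Ad lib, VSG gave calls in 0 of 10 core clock genes by edgeR, with 1 (Rora) at an unadjusted p under 0.05 and 0 in DESeq2, and Rora passed with RUVr factors (adjusted p = 0.0458). Median log2 fold changes of the list were -0.24 for VSG and 0.05 for Sham-WM against Sham-Ad lib, and -0.38 for VSG against Sham-WM. Groups of 5 core clock genes did not overlap in each comparison with Sham-WM, and of 0 in VSG against Sham-Ad lib.

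**Figure D3:**
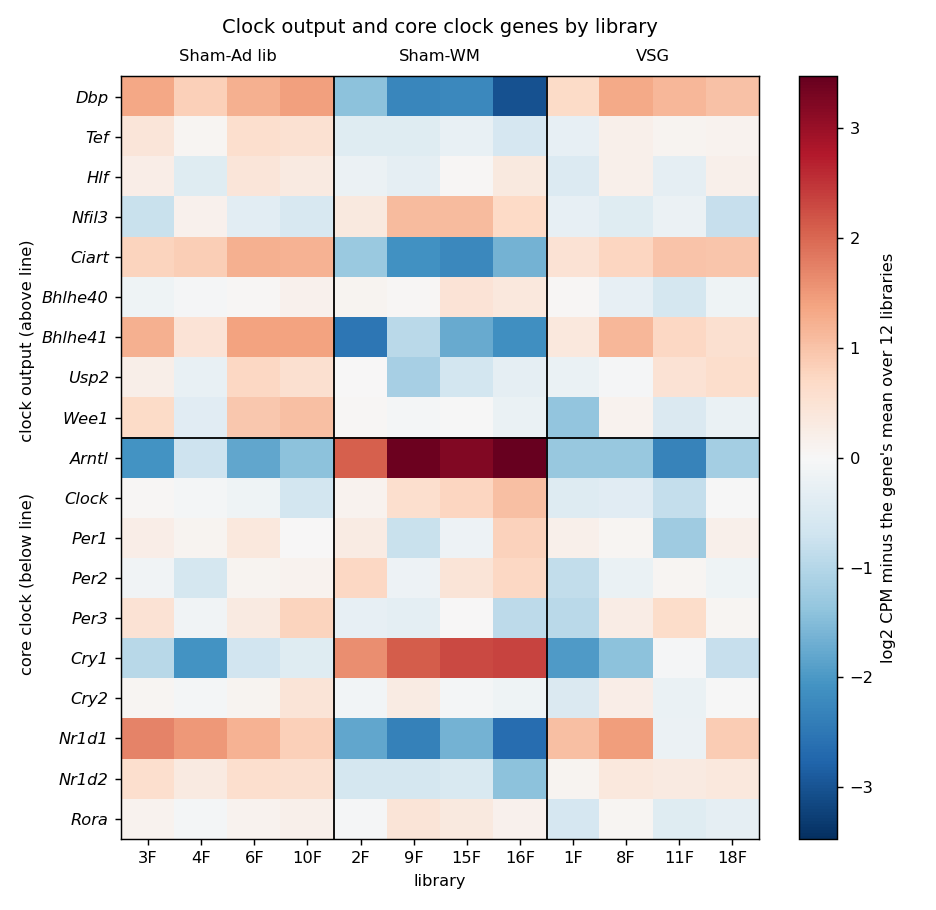
Each cell is 1 gene in 1 library, coloured by log2 CPM minus the gene's mean over the 12 libraries; clock output genes lie above the line and core clock genes below. The Sham-WM columns carry low Dbp, Ciart, Bhlhe41 and Nr1d1 with high Nfil3, Arntl and Cry1, while Hlf, Per1 and Cry2 show no block.

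The Sham-WM livers were not uniform. In that group 2F had the highest Dbp (23.1 CPM) and Ciart (3.47 CPM) and the lowest Nfil3 (26.4 CPM), Arntl (11.8 CPM), Cry1 (35.1 CPM) and Clock (36.1 CPM), which placed it nearest to the other groups for these genes. It was not so for Bhlhe41, where 2F was the lowest liver of all. Nor was it so for Tef, Nr1d1 and Nr1d2, where 15F was the nearest (140.3, 13.3 and 63.4 CPM). At the other end 16F had the lowest Dbp (7.598 CPM) and Nr1d1 (6.58 CPM) and the highest Arntl (31.1 CPM), Cry1 (58.4 CPM) and Clock (68.5 CPM). Without 2F the log2 fold changes of Dbp moved outward, to -3.70 for Sham-WM against Sham-Ad lib and 3.52 for VSG against Sham-WM, and all calls of Dbp, Nfil3, Ciart and Bhlhe41 in the comparisons with Sham-WM held whichever library was left out.

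The balance of the activator Dbp and the repressor Nfil3 was read from the log2 ratio of Dbp to Nfil3, computed with a prior count of 2. It was 3.69, 2.26, 3.17 and 3.55 in Sham-Ad lib livers 3F, 4F, 6F and 10F, and 2.51, 3.29, 2.91 and 3.40 in VSG livers 1F, 8F, 11F and 18F. In Sham-WM livers 2F, 9F, 15F and 16F it was -0.19, -1.80, -1.78 and -2.12. Nfil3 counts therefore exceeded those of Dbp in each Sham-WM liver and in no other. This did not hold for the other activators. In CPM, Tef (112.5 to 140.3) and Hlf (58.6 to 92.5) exceeded Nfil3 (26.4 to 44.8) in every Sham-WM liver. Mean log2 ratios of Dbp to Nfil3 were 3.17 ± 0.64 (Sham-Ad lib), 3.03 ± 0.40 (VSG) and -1.47 ± 0.87 (Sham-WM). The log2 ratio of Dbp to Arntl, a pair that peaks at opposite times of day in mouse liver, split the livers the same way. It averaged 7.16 ± 0.80 in Sham-Ad lib, 7.03 ± 0.65 in VSG and -0.81 ± 1.26 in Sham-WM, where 2F was the highest at 0.96 and 16F the lowest at -2.02.

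**Figure D4:**
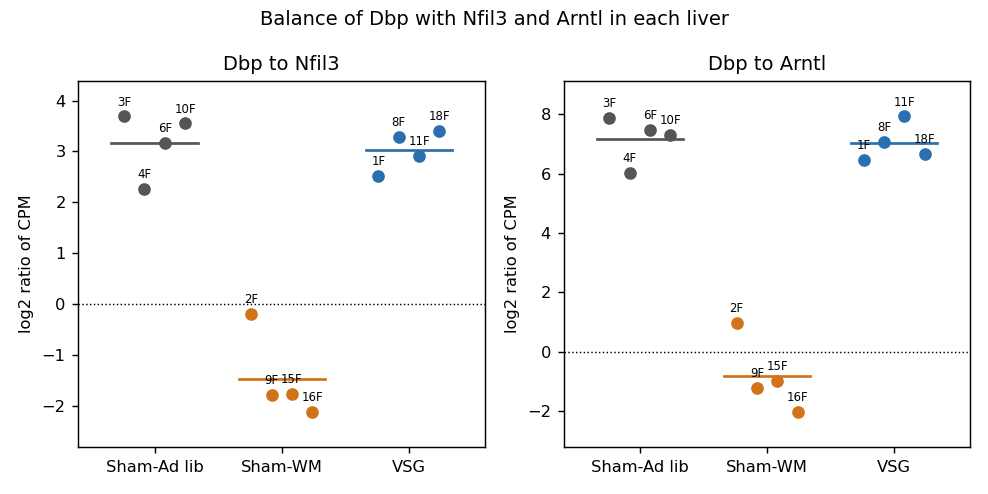
The log2 ratio of CPM is plotted for Dbp to Nfil3 on the left and Dbp to Arntl on the right, with 1 labelled point per liver and a line for the mean of 4. All Sham-WM livers lie below all others, and 2F is the nearest to them.

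Of 10 liver genes linked to PAR-bZIP factors, edgeR called 1 in Sham-WM against Sham-Ad lib, beside 6.99% of all genes. In VSG against Sham-WM 1 was higher and 1 lower, beside 26.9% of all genes. Por, the reductase that passes electrons to cytochrome P450 enzymes, fell from 561 ± 117 CPM in Sham-Ad lib to 319 ± 44.4 CPM in Sham-WM (log2 fold change -0.81, adjusted p = 0.0212). In VSG Por was 482 ± 114.96 CPM, higher than in Sham-WM (log2 fold change 0.59, adjusted p = 0.034). The first call of Por was lost without 6F, 10F, 15F or 16F (adjusted p = 0.0537, 0.0549, 0.0677 and 0.0791). The second was lost without 2F, 15F, 16F, 8F or 11F (0.0509, 0.0805, 0.105, 0.0561 and 0.0911) and with RUVs factors (0.164). Cyp4a14, a fatty acid hydroxylase, was lower in VSG (118 ± 96.8 CPM) than in Sham-WM (885 ± 274 CPM), with a log2 fold change of -2.91 (adjusted p = 0.00972; 0.511 with RUVs factors). Without 18F it also passed in VSG against Sham-Ad lib (log2 fold change -2.46, adjusted p = 0.0457), where edgeR called 0 of the 10 with all libraries, 3 had an unadjusted p under 0.05 and DESeq2 called 1 (Ppara). Nr1i3, Alas1, Cyp2a5, Cyp2b10, Cyp7a1, Pdxk, Ppara and Cyp4a10 were not called by edgeR in any comparison, while DESeq2 also called Pdxk in VSG against Sham-WM. The list's median log2 fold changes were -0.43 for VSG and -0.16 for Sham-WM against Sham-Ad lib, and -0.16 for VSG against Sham-WM.

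Other genes known to be rhythmic in liver split in both directions. Of 10, 3 rose (Elovl3, Lonrf3 and Insig2) and 3 fell (Rgs16, Coq10b and Upp2) in Sham-WM against Sham-Ad lib, and each of the 6 differed in the opposite direction in VSG against Sham-WM. Elovl3, a fatty acid elongase, stood at 47.8 ± 11.9 CPM in Sham-Ad lib and 30.8 ± 3.41 in VSG livers but 219 ± 76.9 in Sham-WM livers, with log2 fold changes of 2.20 in Sham-WM against Sham-Ad lib (adjusted p = 0.0002) and -2.83 in VSG against Sham-WM (adjusted p = 3.15e-05). Upp2, a uridine phosphorylase, stood at 888 ± 167 CPM in Sham-Ad lib, 709.8 ± 256 after VSG and 178 ± 91.3 in Sham-WM, with -2.32 (adjusted p = 0.00344) and 2.00 (adjusted p = 0.00288). Insig2, which retains SREBP precursors in the endoplasmic reticulum, had 1.39 (adjusted p = 0.00791) and -1.68 (adjusted p = 0.00139; 0.0656 with RUVs factors). For Rgs16, a regulator of G protein signalling, the values were -3.31 (adjusted p = 0.0191) and 2.33 (adjusted p = 0.0314), the second in overlapping groups and 1.10 without 18F. Coq10b had -1.06 (adjusted p = 0.046) and 1.01 (adjusted p = 0.024), and Lonrf3 1.69 (adjusted p = 0.0404) and -2.15 (adjusted p = 0.00612; 0.367 with RUVs factors). VSG against Sham-Ad lib gave 0 of 10 calls by edgeR and 0 in DESeq2, with 2 at an unadjusted p under 0.05, and the list's median log2 fold changes were -0.23 there, 0.74 for Sham-WM against Sham-Ad lib and -0.27 for VSG against Sham-WM.

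Several of these calls were lost when single livers were left out, while the log2 fold changes of Coq10b and Lonrf3 stayed of similar size. Without single libraries, Coq10b ran from -1.19 to -0.83 and Lonrf3 from 1.36 to 1.98 in Sham-WM against Sham-Ad lib. In Sham-WM against Sham-Ad lib, Rgs16 was lost without 15F or 16F (adjusted p = 0.0691 and 0.0561), Coq10b without 3F, 6F, 10F, 2F, 9F, 15F or 16F (0.109, 0.102, 0.0921, 0.0784, 0.0729, 0.076 and 0.0896), and Lonrf3 without 3F, 4F, 10F, 9F, 15F or 16F (0.106, 0.0584, 0.0593, 0.0827, 0.116 and 0.0896). In VSG against Sham-WM, Coq10b was lost without 11F or 18F (0.0607 and 0.0515). Rgs16 was lost there without 9F, 15F, 16F or 18F (0.05, 0.0865, 0.0786 and 0.139), when only the 2 groups were fitted (0.0507) and with RUVr factors (0.0574). Without 18F its log2 fold change there went from 2.33 to 1.10. The level of Rgs16 was 381 CPM in VSG liver 18F and between 46.2 and 79.9 CPM in the other VSG livers, and without 18F Rgs16 passed in VSG against Sham-Ad lib (log2 fold change -2.21, adjusted p = 0.0402).

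The C/EBP family, bZIP factors of another branch, gave 1 call among 5 genes: Cebpd was higher in VSG than in Sham-WM (13.1 ± 7.21 and 4.20 ± 1.05 CPM, log2 fold change 1.64, adjusted p = 0.0125; 0.209 with RUVs factors). RUVr factors also called Cebpd in Sham-WM against Sham-Ad lib (0.0365). Cebpa, Cebpb, Cebpg and Ddit3 were not called by edgeR, while DESeq2 also called Cebpb in VSG against Sham-WM. Beside Wee1, genes of mitotic entry were read from a list of 10, of which 6 were tested. In VSG against Sham-WM 4 were higher: Cdk1, the target of WEE1 (log2 fold change 1.79, adjusted p = 0.0171), its cyclin Ccnb2 (1.96, adjusted p = 0.0336), Mki67 (2.02, adjusted p = 0.0409) and Top2a (2.46, adjusted p = 0.0148). All 4 had overlapping groups and low levels, Cdk1 at 2.59 ± 1.596 CPM in VSG and 0.743 ± 0.256 CPM in Sham-WM. Ccnb2 stood at 2.63, 1.48 and 1.08 CPM in VSG livers 1F, 8F and 18F and at 0.765 CPM or less in every other liver. It thus passed the filter on low counts largely through VSG livers. Since the filter in part set its direction, no conclusion is drawn from the count of 4 or from the medians of this list. Cdk1 was lost without 15F or 1F (adjusted p = 0.0532 and 0.0635), Ccnb2 without 2F, 9F, 16F, 1F or 8F (0.0818, 0.0814, 0.0812, 0.118 and 0.0589) and when only the 2 groups were fitted (0.0571), and Mki67 without 10F, 2F, 9F, 15F, 16F, 1F or 8F (0.052, 0.0912, 0.0923, 0.0656, 0.0804, 0.119 and 0.105). RUVs factors ended the calls of Ccnb2 (0.414) and Top2a (0.696) and turned the log2 fold changes of Cdk1 and Mki67 to -0.16 and -0.24. Against Sham-Ad lib, edgeR called 0 of the 6 in VSG (6 unadjusted, 3 in DESeq2, which also called Ccnb1 from outside the 6) and 0 in Sham-WM (0 unadjusted, 0 in DESeq2), with medians of 1.97 and -0.03 on the log2 scale, beside 1.89 for VSG against Sham-WM. Without 4F, Mki67 and Top2a passed in VSG against Sham-Ad lib (adjusted p = 0.0417 and 0.0445), and without 18F so did Cdk1, Mki67 and Top2a (0.0353, 0.0435 and 0.0351). With RUVr factors Cdk1, Ccnb2, Mki67 and Top2a passed there (0.00306, 0.0281, 0.00806 and 0.00578), and Top2a also without a filter (0.0381).

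Markers of other cells moved with VSG in the same libraries. Summed neutrophil markers, with S100a9 the most abundant, were 721, 299, 109.1 and 22.0 CPM in VSG livers 1F, 8F, 11F and 18F, between 0.649 and 14.4 CPM in Sham-Ad lib and between 1.58 and 2.70 CPM in Sham-WM. Of 7 neutrophil genes 6 were tested, and 5 were higher in VSG than in Sham-Ad lib (6 unadjusted, 6 in DESeq2) and 6 than in Sham-WM. Some of them, such as Mpo, Elane and Retnlg, were near 0 CPM in most sham livers and passed the filter on low counts through VSG livers. Since the filter in part set their direction, no conclusion is drawn from this count. Kupffer cell markers, with Cd5l the most abundant, summed to 1118, 581, 549 and 389 CPM in VSG livers 1F, 8F, 11F and 18F, and 2 of 6 were higher than in Sham-Ad lib by edgeR (6 unadjusted, 5 in DESeq2) and 6 of 6 than in Sham-WM. In Sham-Ad lib they summed to 113.5, 376, 155 and 132 CPM in 3F, 4F, 6F and 10F, so 4F was the highest of its group. Hepatocyte markers summed to 116021 ± 9761 CPM (Sham-Ad lib), 134663 ± 11676 (Sham-WM) and 93037 ± 20570 (VSG), and 2 of 6 (Alb and Cps1) were lower in VSG than in Sham-WM. Their part in the differences of VSG was not tested.

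In Sham-WM against Sham-Ad lib, edgeR called 0 of 6 neutrophil, 0 of 6 Kupffer cell and 0 of 6 hepatocyte markers, with 0 at an unadjusted p under 0.05 and 0 in DESeq2 for each list. Their median log2 fold changes were -1.15, -0.34 and 0.04, and 1 hepatocyte marker had groups that did not overlap. What cell composition adds to the differences of the members was not tested. Of the remaining lists, edgeR gave a single call in that comparison, the stellate cell gene Lrat, which was higher, and DESeq2 called Lrat and the red blood cell gene Alas2. In VSG against Sham-WM, B and plasma cell genes gave 3 higher of 5 tested from a list of 6. T and NK cell genes gave 2 higher of 4 tested from a list of 7, and red blood cell genes 1 higher of 6. Summed B and plasma cell markers were 17.2 ± 5.20 CPM in VSG and 4.91 ± 1.35 in Sham-WM, and T and NK cell markers 5.99 ± 2.00 and 2.13 ± 1.11. Genes this rare can pass the filter through the group where they are high, so no conclusion is drawn from the counts of these lists. Over all genes 15% were higher and 11.9% lower in that comparison. Sinusoidal endothelium gave 2 lower of 6, stellate cells 2 lower of 6, and cholangiocytes 0 of 5 by edgeR (2 unadjusted, 1 in DESeq2). DESeq2 also called Mzb1 and Cd3d there. Against Sham-Ad lib, VSG livers had 1 higher B and plasma cell gene by edgeR, Jchain, and DESeq2 also called Mzb1 and the stellate cell gene Reln. Of the adipocyte and pancreas lists 1 gene each was tested and 0 were called by edgeR or DESeq2 in the 3 comparisons (1, Cidea, unadjusted in VSG against Sham-Ad lib), and Lep, Cpa1, Pnlip and Ins2 had 0 counts in every library, which allows up to 3 counts in each. With 1F and 4F both left out, an alternative chosen after seeing the data, 1 member was called in VSG against Sham-Ad lib (Wee1, adjusted p = 0.00839). Then 7 members were called in each comparison with Sham-WM, where Usp2 also passed (adjusted p = 0.0465 against Sham-Ad lib and 0.0368 for VSG), as did Wee1 against Sham-Ad lib (0.00705). Of 13100 genes tested this alternative called 412 in VSG against Sham-Ad lib, 682 in Sham-WM against Sham-Ad lib and 2424 in VSG against Sham-WM. The same step ended the call of Clock in Sham-WM against Sham-Ad lib (0.0631) and, in VSG against Sham-WM, those of Per2 (0.0627), Rora (0.0559), Cdk1 (0.0519), Ccnb2 (0.121) and Mki67 (0.0866).

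Genes whose pattern over the 12 libraries lay nearest to each called member were sought among 9556 others whose mean log2 CPM was 2 or more, by the root mean square (RMS) difference of scaled log2 CPM. Nearest to Dbp were Hook2 (RMS difference 0.195), Bid (0.226) and Ciart (0.238). Hook2, a linker protein of microtubules, stood at 28.0 ± 2.37 CPM (Sham-Ad lib), 13.4 ± 1.57 (Sham-WM) and 28.6 ± 2.74 (VSG), the order of groups kept for the genes named next. For Ciart the nearest were Ap5z1 (0.207), Tmco4 (0.236) and Dbp (0.238), so that Dbp and Ciart were in each other's lists. Bhlhe41 was nearest to Slc5a6 (0.266), Cnppd1 (0.278) and Dedd2 (0.278), and of these Slc5a6, a vitamin transporter, had 23.8 ± 4.80, 5.55 ± 0.888 and 19.5 ± 3.24 CPM. Around Tef lay Slc2a9 (0.326), Npc1 (0.339) and Pank1 (0.379), with Pank1, which makes the first step to coenzyme A, at 358 ± 51.7, 215 ± 25.6 and 256 ± 45.7 CPM. Patterns like that of Nfil3, high in Sham-WM, were those of Kifc3 (0.317), Abtb2 (0.382) and Ypel2 (0.385), and Abtb2 had 8.98 ± 3.01, 27.8 ± 3.26 and 8.97 ± 0.165 CPM. Bhlhe40 had the least close neighbours, Nus1 (0.419), Atf1 (0.435) and Ppp4r1 (0.438).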

How the data were processed

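Liver poly(A) RNA was measured in 12 libraries of separate mice. The deposited values are raw counts of reads per Ensembl gene, which the authors made with TopHat2 2.1.1 on mm10 and featureCounts, with the annotation release and strand setting not stated. Of 46078 gene identifiers 45143 matched GENCODE M21 and 935 did not. Library totals were 15122520 to 19384076 counts.

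Genes were kept by filterByExpr (minimum count 10, minimum total 15), scaled by TMM and tested with the edgeR 4.0.16 quasi-likelihood test in 1 fit of all 12 libraries for 3 comparisons, with Benjamini-Hochberg adjustment over the 13054 genes tested (limma 3.58.1, R 4.3.3). Confidence intervals are at 95%. Log2 CPM used a prior count of 2. Exact permutation tests used differences of mean log2 CPM. Levels per kb divide CPM by the length of all annotated exons joined, which can exceed that of the transcripts present.

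Alternatives were DESeq2 1.42.0, its size factors and upper quartile factors in edgeR, no filter, at least 10 counts in every library, only the 2 groups compared, 2 factors of unwanted variation by RUVr or RUVs, unadjusted p, grouping by the description field, leaving out each library, and leaving out 1F and 4F, the last chosen after seeing the data. Between replicates the lowest Spearman correlation was 0.963. Promoters and their sequences are those of RefSeq. Beyond the core clock genes listed, 1 further gene is not reported here. The members and lists were chosen with earlier results of these data known. Text names all members, genes of the clock, PAR-bZIP-linked, rhythmic, C/EBP and mitotic lists called in at least 1 comparison and the 3 nearest patterns of each called member, and the names of uncalled genes were added after their values were seen.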

Additional observations from a re-analysis of the deposited data

Results flagged for a closer look

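In each group of 4 livers, the 9 members and called genes of the clock, PAR-bZIP-linked, rhythmic, C/EBP and mitotic lists, 29 genes in all, were searched for a liver whose gap in log2 CPM to its nearest neighbour, as a share of the group's range on that scale, passed Dixon's critical value at the 95% level. Genes of the cell type lists were not searched. This picked out 6 of 87 groups, and chance flags about 1 in 20 groups. Among the members, Tef was low in VSG liver 1F (139.7 CPM), with a gap of 0.834 of the range. In the core clock, Arntl was low in VSG liver 11F (0.452 CPM, gap 0.871). Nr1d2 was low in Sham-Ad lib liver 4F (112.8 CPM, gap 0.873) and in Sham-WM liver 16F (33.8 CPM, gap 0.899). Coq10b was low in Sham-WM liver 9F (12.6 CPM, gap 0.905), and Cebpd was high in Sham-Ad lib liver 4F (16.3 CPM, gap 0.831). On the CPM values themselves the gaps of Tef (0.812) and Arntl (0.822) did not pass, and the other 4 did. The cause was not tested for any of them.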

How the results depend on the processing

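The 9 members and 20 called genes of the clock, PAR-bZIP-linked, rhythmic, C/EBP and mitotic lists were fitted again under each alternative that tested them. With single libraries left out, 305 of the members' values kept their direction and side of the threshold, 8 lost a call, 4 gained one and 7 changed sign. Under the other alternatives, the description field and unadjusted p aside, 217 kept both, 2 lost a call, 15 gained one and 6 changed sign. Of the list genes' values, 643 kept both with single libraries left out, 55 lost a call, 7 gained one and 15 changed sign. Under the other alternatives 478 of them kept both, 19 lost a call, 11 gained one and 18 changed sign. No paired analysis was possible because the labels pair no mice. With at least 10 counts in every library Bhlhe41, Arntl, Cdk1, Ccnb2 and Top2a were not tested, and with only the 2 groups Ccnb2 was tested in VSG against Sham-WM alone. Without molecular identifiers the error of single counts is not known. Where values moved, the cause was not tested.

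Members called in VSG against Sham-Ad lib, 0 in edgeR, were 1 in DESeq2, 1 without a filter, 2 with RUVr factors, 2 at an unadjusted p, 1 with 1F and 4F left out and 0 to 2 without single libraries. By the description field 0 were called in edgeR in each comparison with Sham-WM, beside 5 and 6. Of all genes, VSG against Sham-Ad lib gave 1227 in DESeq2, 628 without a filter, 3016 with RUVr factors, 6 with RUVs factors, 3149 at an unadjusted p, 412 with 1F and 4F left out and 0 to 1089 without single libraries. In edgeR it gave 0 with at least 10 counts in every library (2755 unadjusted), 0 with only the 2 groups (2523 unadjusted) and 0 by the description field (465 unadjusted). For Sham-WM against Sham-Ad lib the count was 1433 in DESeq2, 1399 with only the 2 groups, 2193 with RUVr factors, 1723 with RUVs factors, 2814 at an unadjusted p, 0 by the description field in edgeR (715 unadjusted) and 424 to 1311 without single libraries. VSG against Sham-WM gave 5491 with RUVr factors, 518 with RUVs factors, 5268 at an unadjusted p, 0 by the description field in edgeR (158 unadjusted) and 2196 to 3868 without single libraries.

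Grouping by the description field mixes the treatments as named here and turned the sign of many log2 fold changes, none of which passed in edgeR. In VSG against Sham-Ad lib they became 0.32 for Dbp, 0.19 for Ciart, 0.15 for Bhlhe41, 0.065 for Usp2, -1.41 for Cry1, 1.26 for Nr1d1, 0.26 for Nr1d2, 2.25 for Rgs16, 0.027 for Coq10b and 0.014 for Upp2. In Sham-WM against Sham-Ad lib they became 0.39 for Dbp, 0.14 for Tef, -0.16 for Nfil3, 0.35 for Ciart, -0.21 for Bhlhe40, 0.52 for Bhlhe41, 0.031 for Wee1, -0.83 for Arntl, -0.26 for Clock, -0.56 for Per2, -1.09 for Cry1, 1.37 for Nr1d1 and 0.31 for Nr1d2. In that comparison they were also -0.33 for Cyp4a14, 1.82 for Rgs16, -0.61 for Elovl3, 0.24 for Upp2, -0.44 for Lonrf3, -0.12 for Insig2, 0.63 for Cebpd, 0.076 for Cdk1, 1.12 for Mki67 and 1.24 for Top2a. In VSG against Sham-WM they became -0.068 for Dbp, -0.15 for Tef, -0.16 for Ciart, 0.021 for Bhlhe40, -0.36 for Bhlhe41, 0.21 for Per2, -0.12 for Nr1d1, -0.048 for Nr1d2, -0.17 for Por, -0.23 for Upp2 and -0.17 for Mki67. The differences of Sham-WM from Sham-Ad lib in mean log2 ratio became 1.09 for Dbp to Nfil3 and 1.78 for Dbp to Arntl.

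RUVs factors turned log2 fold changes in VSG against Sham-Ad lib to 0.23 for Hlf, 0.30 for Usp2, 0.16 for Clock, 0.16 for Per2, 0.42 for Coq10b, 0.28 for Lonrf3 and -0.024 for Cdk1. With these factors Sham-WM against Sham-Ad lib gave 0.14 for Cdk1, 0.57 for Mki67 and 0.12 for Top2a, and VSG against Sham-WM gave 0.54 for Hlf, 0.28 for Wee1, -0.16 for Cdk1 and -0.24 for Mki67. Leaving out 1F and 4F turned VSG against Sham-Ad lib to 0.10 for Nfil3 and 0.30 for Arntl, Sham-WM against Sham-Ad lib to 0.69 for Mki67 and 0.16 for Top2a, and VSG against Sham-WM to 0.042 for Hlf. Cry1 in VSG against Sham-Ad lib became -0.012 in DESeq2, -0.0096 with its size factors in edgeR, -0.031 without a filter and -0.026 with RUVr factors, which also gave 0.24 for Mki67 in Sham-WM against Sham-Ad lib. Without single libraries, VSG against Sham-Ad lib ranged from -0.19 to 0.15 for Nfil3, -0.26 to 0.052 for Usp2, -0.23 to 0.34 for Arntl, -0.42 to 0.26 for Cry1 and -0.24 to 0.10 for Coq10b. The same ranges were -0.66 to 0.36 for Ccnb2, -0.30 to 0.69 for Mki67 and -0.60 to 0.16 for Top2a in Sham-WM against Sham-Ad lib, and -0.18 to 0.068 for Hlf in VSG against Sham-WM.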
